A study of Mus musculus with 30 samples.

Results

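The comparison described here is the oxLDL by pNaKtide interaction in 3T3-L1 adipocytes: how far the effect of the peptide pNaKtide differed between cells given oxidized low-density lipoprotein and cells not given it. It used 20 of the 30 RNA-seq libraries in the series, 5 in each of 4 groups chosen by their treatment labels. Control cells received neither agent, pNaKtide cells received 0.7 µM of the peptide, oxLDL cells (labelled Ox-LDL) received 50 µg/mL of the lipoprotein, and oxLDL + pNaKtide cells received both at those concentrations. The interaction of a gene is the log2 difference between oxLDL + pNaKtide and oxLDL minus the log2 difference between pNaKtide and Control. A positive value means that pNaKtide raised the transcript more, or lowered it less, in the presence of oxLDL than in its absence, and a negative value means the opposite. All 4 groups came from one established mouse preadipocyte line that had been turned into adipocytes in adipogenic medium, so the cells carry no vessel, nerve or immune compartment of a fat pad. The labels give 5 days of exposure to the agents. The methods of the study describe a shorter exposure, so its length is uncertain. They do not say whether the 5 libraries of a group came from separate cultures, so the p-values measure only the spread between these libraries, which may be technical. In bulk RNA of this kind, fewer cells of a type and less RNA per cell cannot be told apart.

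The Na,K-ATPase moves sodium and potassium across the plasma membrane through a catalytic subunit, with a β subunit needed for its delivery to the surface. The pump also binds the tyrosine kinase Src, and oxidants or cardiotonic steroids release that kinase to start a phosphorylation cascade that generates more oxidants. The peptide pNaKtide carries a stretch of the pump that holds Src inactive, joined to a cell-penetrating sequence, and was made to interrupt that loop. Oxidized LDL is taken up through scavenger receptors such as CD36 and delivers oxidized lipids and cholesterol to the cell. In adipocytes such a load reaches the antioxidant response, cholesterol handling, mitochondria, lysosomes, inflammation and the matrix.

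The interaction passed a Benjamini-Hochberg (BH) adjusted p of 0.1 in 4484 of 18853 genes tested, or 23.8%. Of these, 2329 (12.4% of the genes tested) were positive and 2155 (11.4%) negative, and 6055 genes had an unadjusted p under 0.05. The median absolute interaction of the 4484 genes was 0.64 on the log2 scale, and 661 passed 2-fold, 162 of them positive and 499 negative. The 4 simple contrasts beneath the interaction were unequal. The contrast of oxLDL with Control passed in 6835 genes (36.3%) and that of oxLDL + pNaKtide with oxLDL in 9295 genes (49.3%). By edgeR the contrast of pNaKtide with Control passed in 0 genes, with 1058 at an unadjusted p under 0.05, and DESeq2 called 31. The contrast of oxLDL + pNaKtide with pNaKtide alone also passed in 0 genes by edgeR, with 1133 at an unadjusted p under 0.05, and DESeq2 called 25.

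The group of cells with oxLDL alone stood apart from the other groups in most of these genes. Its mean was the lowest of the 4 groups in 2281 of the 2329 genes with a positive interaction (97.9%, against 34.8% of all genes tested). It was the highest in 2111 of the 2155 genes with a negative interaction (98%, against 43.9% of all genes tested). These shares describe the same means that enter the interaction and carry no test of their own. Over the genes past the threshold, the group farthest from the other 3 was oxLDL in 88.2% and oxLDL + pNaKtide in 9.23%, against 60.5% and 18.3% of all genes tested.

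The libraries differed in a way that ran along the groups. They held 6945498 to 13516334 counted reads, and the first principal component carried 70.8% of the variance over 9778 genes. Its scores ran from -41.9 to -18.8 in the oxLDL libraries and from 5.81 to 49.9 in the oxLDL + pNaKtide libraries. The Control libraries spanned -29.1 to 18.5 and the pNaKtide libraries -10.6 to 24.4. Control replicate 1 lay at the low end of its group and oxLDL + pNaKtide replicate 4 at the high end of its own, and pNaKtide replicate 3 was the lowest of the pNaKtide libraries. The relation between abundance and the GC content of the transcripts differed likewise. Per 10 percentage points of GC, log2 CPM changed by -0.483 to -0.199 in the oxLDL libraries and by 0.0298 to 0.582 in the oxLDL + pNaKtide libraries, each relative to the mean of the 20 libraries. It changed by -0.268 to 0.261 in Control and by -0.207 to 0.209 in pNaKtide. The library numbers in the labels run group by group and no batch is given, so the order of the libraries and the groups cannot be told apart.

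**Figure D1:**
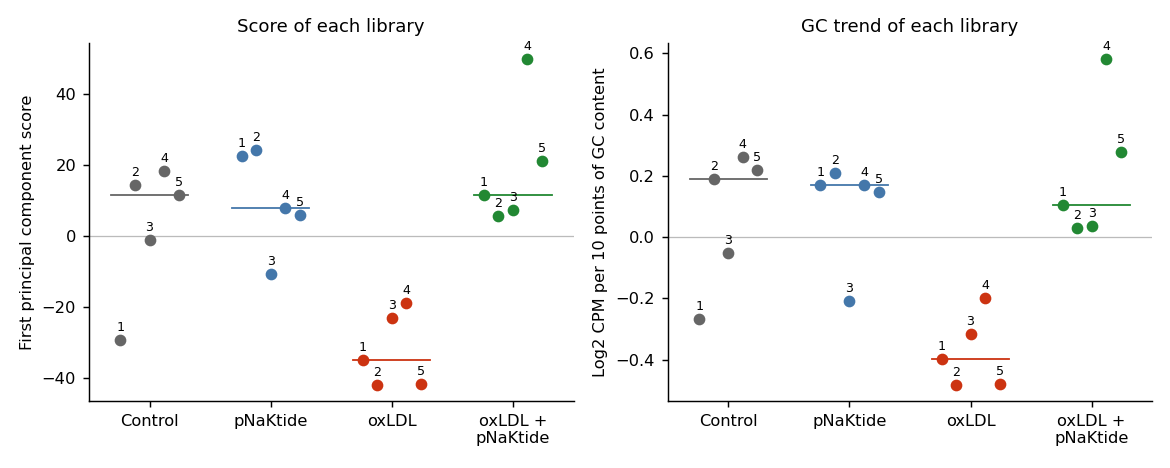
First principal component score (left) and the log2 CPM change per 10 percentage points of transcript GC content (right) of the 20 libraries, with 1 point per library, its replicate number beside it, a line at the group median and the group on the horizontal axis. The oxLDL libraries all lie below the oxLDL + pNaKtide libraries on both axes, and Control replicate 1 (-29.1) lies within the range of the oxLDL libraries on the component.

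Across 9771 genes the interaction followed the same property, with Pearson's r of 0.69 against GC content and -0.44 against log2 transcript length, given as a description since genes are not replicates. In the 318 genes under 40% GC the median interaction was -0.73, and 4 of them were called positive and 211 negative. In the 409 genes of 60% GC or more the median was 0.47, and 232 were called positive and 0 negative by edgeR. The comparison was therefore repeated after each library's smooth dependence on GC content and transcript length had been removed, which left r at -0.0014 and -0.027. With the trend removed 2097 genes passed (11.1%), 1321 positive (7.01%) and 776 negative (4.12%). Of the 4484 genes, 1370 passed in both fits with the same sign (875 positive and 495 negative), and 0 passed with opposite signs, while a further 727 genes passed only with the trend removed. Values with the trend removed are therefore given beside the others, and counts over a list also with scaling by library size alone and over the 20 fits that left out 1 library, positive before negative. The shares over all genes tested were 12.4% and 11.4% with TMM scaling and 7.01% and 4.12% with the trend removed. Of the 18853 genes, library size alone called 1094 and 3611, and the fits without 1 library 1125 to 3590 and 846 to 3665. A list whose shares lie near those of all genes in the same fit gives no result about the list. Where more members of a list are named than the leading one in each direction, they were picked as examples after their values were seen. Whether the trend came from the cells or from the preparation of the libraries was not tested.

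**Figure D2:**
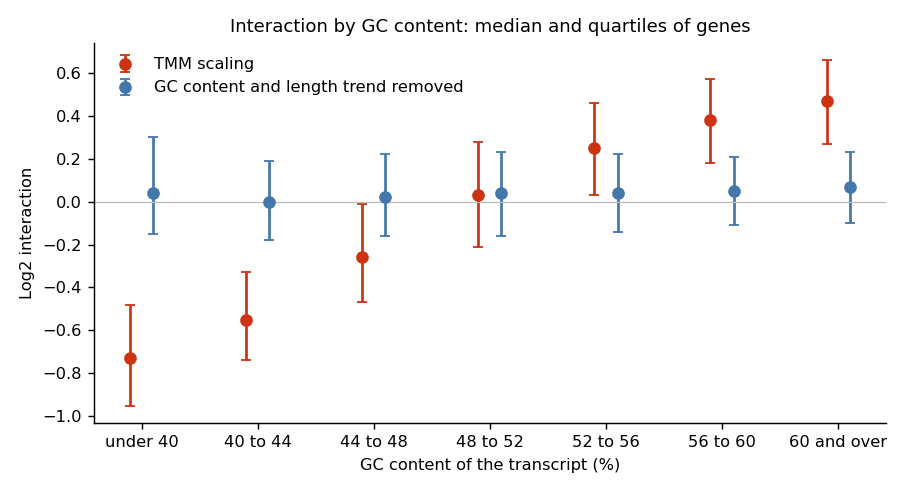
Median log2 interaction of the genes in 7 bins of transcript GC content (percent), with bars from the lower to the upper quartile of genes, with TMM scaling and with each library's GC and length trend removed. The median climbs from -0.73 in the bin under 40% GC to 0.47 in the bin of 60% or more, and lies between 0 and 0.07 in every bin with the trend removed.

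Among genes of moderate or high abundance, the 12 largest positive interactions that held with every library left out belonged to genes of varied roles, several of them enzymes or membrane proteins, and in all 12 the interaction was smaller with the trend removed. G6pc3, a glucose-6-phosphatase of the endoplasmic reticulum, had an interaction of 1.06 (SE 0.25, BH-adjusted p = 0.0249) and 0.67 (adjusted p = 0.0229) with the trend removed. Its level was 14.2 ± 3.76 CPM in Control, 14.9 ± 2.59 CPM with pNaKtide, 8.5 ± 0.986 CPM with oxLDL and 18.8 ± 3.7 CPM with both (mean ± SD, n = 5), where CPM are reads scaled to the library size with TMM factors. Naxe, which repairs damaged NADH and NADPH, reached 0.98 (adjusted p = 0.0225) and 0.54 (adjusted p = 0.00529) with the trend removed. Yjefn3, of the same protein family, reached 1.17 with 0.53 after removal. Abcb6, a porphyrin transporter, was at 0.98 (adjusted p = 0.0225) and 0.74 (adjusted p = 0.0114), and Reep6, which shapes endoplasmic reticulum membrane, was at 1.05 and 0.65 in the same order. Atp5d, the δ subunit of the mitochondrial ATP synthase, was at 0.95 and 0.51, and Sf3a2, a splicing factor subunit, at 0.97 and 0.57. Dlk1, the preadipocyte membrane protein also known as Pref-1, was at 0.96 (SE 0.29, BH-adjusted p = 0.0399) and kept most of that value with the trend removed, 0.89 (adjusted p = 0.0964). It measured 144 ± 38.7 CPM in Control, 149 ± 30.7 CPM with pNaKtide, 89.6 ± 19.5 CPM with oxLDL and 180.1 ± 54.1 CPM with both. Tmem160 (1.17), Rtn2 (0.97), the histone variant H2afj (0.97) and Znhit2 (0.95) complete the 12 genes chosen by size, and with the trend removed they were at 0.52 (adjusted p = 0.0258), 0.57 (adjusted p = 0.0831), 0.71 (adjusted p = 0.108) and 0.44 (adjusted p = 0.0434).

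The largest negative interactions included those of zinc finger genes, matrix and vascular factors, and kinases of cell shape. Aspn measured 125, 82, 106, 77.2 and 77.6 CPM in Control libraries 1 to 5, 53.9, 56.8, 119, 65.9 and 62.6 CPM in the pNaKtide libraries, 245, 285, 189.7, 160.3 and 268 CPM in the oxLDL libraries and 54.2, 71.2, 86, 40.9 and 37.3 CPM in the oxLDL + pNaKtide libraries, in the order of the replicates, as for all such values here. Aspn, asporin, is a small leucine-rich proteoglycan that binds TGF-β, and its 5 oxLDL values lay above all 15 others. Its interaction was -1.60 (SE 0.34, BH-adjusted p = 0.0225) and -0.59 (adjusted p = 0.0119) with the trend removed. Angpt1, the ligand of the Tie2 receptor, had an interaction of -1.38 (adjusted p = 0.0225) and -0.60 (adjusted p = 0.00434) after removal. Rock1, a kinase of contraction, was at -1.37 (adjusted p = 0.0319) and -0.62 (adjusted p = 0.0378), and Arhgap5, which turns small GTPases off, at -1.54 (adjusted p = 0.0356) and -0.41 (adjusted p = 0.0576). Calcrl, the receptor for adrenomedullin, was at -1.36 and -0.51, and Fam126b was at -1.55 and -0.58. Arid4b, a chromatin factor, was at -1.45 and -0.75. The zinc finger genes Zfp966 (-1.70, -0.89 with the trend removed), Zfp969 (-1.50, -0.94 with the trend removed), Zfp970 (-1.43, -0.89 with the trend removed) and Zfp948 (-1.44, -0.85 with the trend removed) followed. Members of this family share near-identical stretches, so reads can be split between copies and the single values are uncertain. Of the 341 genes with a Zfp symbol, 15 were positive and 109 negative, with a median of -0.56, against 4 and 23 with a median of -0.21 with the trend removed. Their median GC content was 44.5%, against 49.9% for all genes tested.

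Among genes that passed and averaged at least 1 on the log2 CPM scale, the largest positive values were those of 3 models of small noncoding RNA, and 1 library set their size. Gm24447 measured 2.64, 4.91, 5.29, 6.49 and 4.57 CPM in Control libraries 1 to 5, 4.79, 7.82, 2.73, 8.54 and 3.72 CPM in the pNaKtide libraries, 1.86, 3, 7.02, 2.19 and 2.1 CPM in the oxLDL libraries and 127, 6.88, 11.1, 12.9 and 7.59 CPM in the oxLDL + pNaKtide libraries. The value of replicate 1 with both agents stood far above all 19 others. The interaction of 3.22 (SE 1.15, BH-adjusted p = 0.0702) became 1.43 (adjusted p = 0.0528) without that library. Gm26035 went from 3.21 to 1.32 in the same way, and Gm26315, at 3.20 with all libraries, fell likewise. Removal of the trend left the 3 at 2.70 (adjusted p = 0.205), 2.59 (adjusted p = 0.277) and 2.62 (adjusted p = 0.222), none past the threshold. All 3 are annotated as miscellaneous RNA, of a kind that mostly lacks a poly(A) tail, and the kit selects polyadenylated RNA. On the negative side Gm2004, a protein-coding gene model, was at -2.15 (adjusted p = 0.0227) with all libraries and -1.56 (adjusted p = 0.0183) with the trend removed, and -2.2 without that library.

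Among genes of the Na,K-ATPase, the protein from which pNaKtide was derived, the β subunit gene Atp1b1 had a negative interaction that held with the trend removed. Atp1b1 measured 2.16, 1.48, 1.76, 1.55 and 2.01 CPM in Control libraries 1 to 5, 1.56, 3.3, 1.94, 2.66 and 2.76 CPM in the pNaKtide libraries, 3.03, 3.2, 2.42, 2.66 and 2.7 CPM in the oxLDL libraries and 1.47, 2.4, 1.91, 0.983 and 1.75 CPM in the oxLDL + pNaKtide libraries. Atp1b1 lies at chromosome 1, 164437109 to 164458355, in GRCm38, and its oxLDL values lay above all Control and all oxLDL + pNaKtide values but overlapped those of pNaKtide. Its interaction was -1.12 (SE 0.30, BH-adjusted p = 0.0286) and -1.07 (adjusted p = 0.0348) with the trend removed, at a level near 2 CPM, and it passed in all 20 fits that left out 1 library, with the trend in place and with it removed. Fxyd5, a regulator of the pump, was positive at 0.57 (adjusted p = 0.092) but 0.13 (adjusted p = 0.653) with the trend removed.

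The kinase family that the peptide was built to hold was represented mainly by Yes1. Yes1 measured 18.9, 8.42, 11.1, 7.73 and 8.23 CPM in Control libraries 1 to 5, 7.8, 6.84, 14.6, 9.86 and 11.3 CPM in the pNaKtide libraries, 22.5, 28.1, 17.7, 17.8 and 27.3 CPM in the oxLDL libraries and 7.8, 10.6, 9.36, 5.08 and 5.93 CPM in the oxLDL + pNaKtide libraries. Yes1, a Src family tyrosine kinase of wide expression, was higher in the oxLDL libraries than in all others except Control replicate 1. Its interaction was -1.42 (SE 0.35, BH-adjusted p = 0.0253) and -0.79 (adjusted p = 0.0157) with the trend removed, and the gene lies at chromosome 5, 32611171 to 32687057. The transcript rose with oxLDL by 1.06 (adjusted p = 0.0105) and fell with pNaKtide on top of oxLDL (-1.53, adjusted p = 7.08e-05), and oxLDL + pNaKtide differed from pNaKtide by -0.37 (adjusted p = 0.882). Src itself had an interaction of -0.14 (SE 0.13, adjusted p = 0.495), and -0.41 (adjusted p = 0.0432) with the trend removed, which passed only then. Csk, the kinase that inactivates Src family members, had a positive interaction of 0.57 (adjusted p = 0.033), but 0.21 (adjusted p = 0.164) with the trend removed. Frk, a relative of Src, and Cav2, a caveolar scaffold, were called negative at -1.04 and -0.74, and with the trend removed they were at -0.36 (adjusted p = 0.214) and 0.12 (adjusted p = 0.686). Of the 13 genes of the list tested, 1 was positive and 3 negative, and 1 and 2 passed in those directions with the trend removed. The counts were 1 and 4 by library size alone, and 1 to 2 (without Control replicate 1) positive and 3 negative with 1 library left out.

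**Figure D3:**
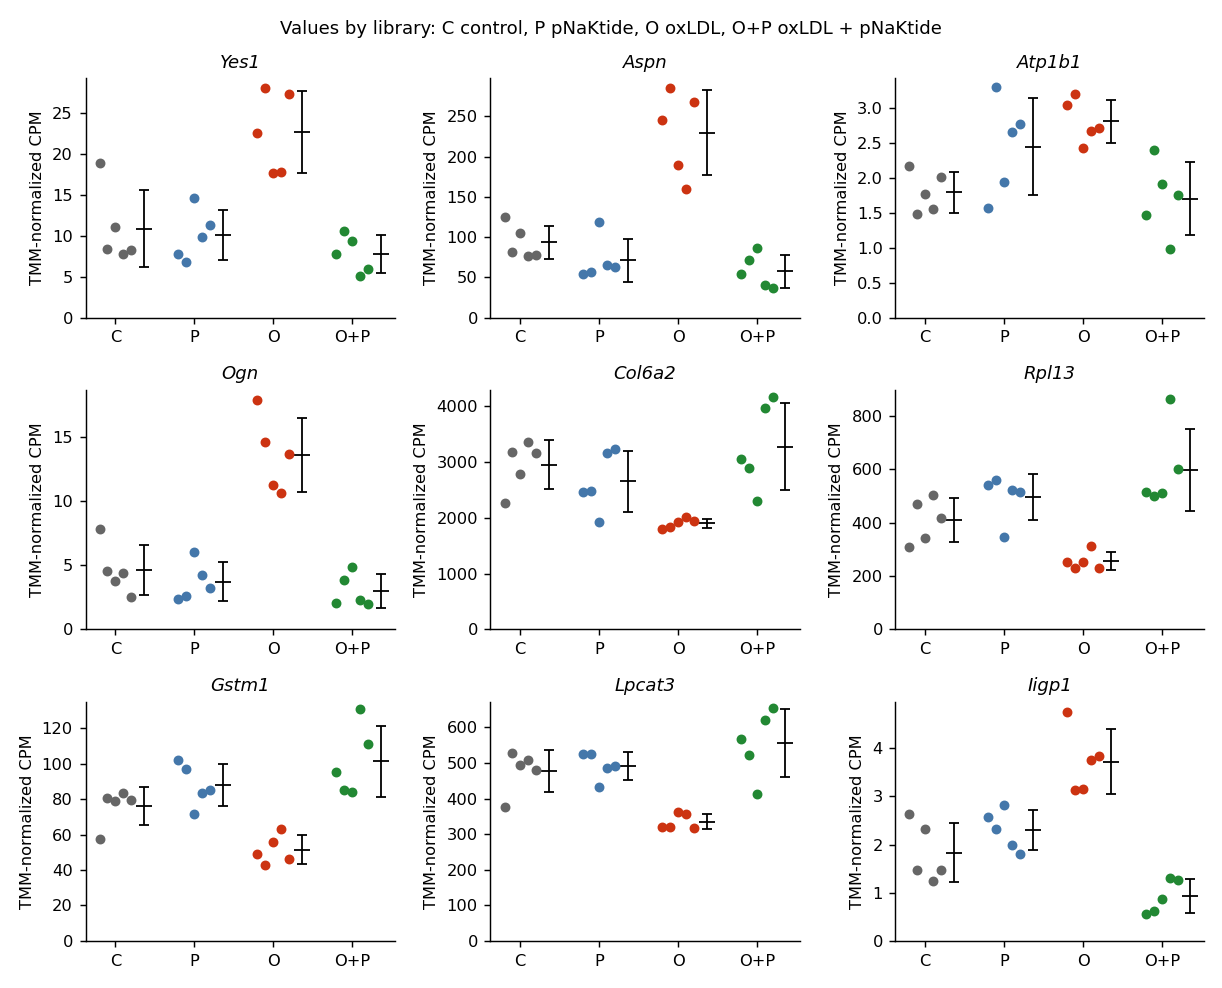
TMM-normalized CPM (linear vertical axis from 0) of 9 genes in the 20 libraries, with 1 point per library and a bar for the mean ± SD of each group of 5. The oxLDL libraries lie highest in Aspn, Ogn and Iigp1, and in Yes1 apart from 1 Control library within their range, and lowest in Lpcat3, and the other groups overlap in most panels.

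Genes of further signaling pathways, whose relation to these kinases was not tested here, had interactions of both signs. Of 29 genes of the MAP kinase and Akt cascade tested, 6 were positive and 5 negative, with a median of -0.13. These were 20.7% and 17.2% of the list, against 12.4% and 11.4% of all genes tested. With the trend removed 6 and 1 passed, with a median of 0.11. By library size alone 3 and 10 passed, and over the fits without 1 library 3 (without Control replicate 2 or Control replicate 4 or pNaKtide replicate 3) to 8 positive and 0 (without pNaKtide replicate 3) to 13 (without Control replicate 1) negative. Hras, a small GTPase of the cascade, was at 0.82 (adjusted p = 0.0275) and 0.59 (adjusted p = 0.0354) with the trend removed, and Map2k2, the kinase MEK2, at 0.85 (adjusted p = 0.0275) and 0.48 (adjusted p = 0.0378). Map2k1, the closely related kinase MEK1, had the opposite sign at -0.38 (adjusted p = 0.0445) and -0.42 (adjusted p = 0.0229). Akt2, the Akt kinase of insulin-sensitive tissue, was at 0.54 (adjusted p = 0.0295), and at 0.39 with the trend removed. Creb1, a transcription factor activated by cyclic AMP, was negative at -0.96 (adjusted p = 0.028), and 4 of 17 genes of its list were called negative and 0 positive. With the trend removed Creb1 was at -0.22 (adjusted p = 0.323), and 0 of the 17 passed by edgeR, while 0 and 7 passed by library size alone and, of that list, 0 to 1 (without Control replicate 1 or pNaKtide replicate 5 or oxLDL + pNaKtide replicate 3) positive and 3 to 8 (without Control replicate 1) negative with 1 library left out. Tlr4, the receptor for bacterial lipid that also answers to oxidized lipid, was at -0.99 (adjusted p = 0.031), and the IκB kinase gene Chuk at -0.94 (adjusted p = 0.0444). Their values with the trend removed were -0.25 (adjusted p = 0.422) and -0.33 (adjusted p = 0.157). Over the 24 genes of the TLR4 and NF-κB pathway, 2 were positive, Rela (0.43, 0.09 with the trend removed) and Nfkb2 (0.47, 0.15 with the trend removed), and 7 negative, and 1 and 2 passed in those directions with the trend removed. Library-size scaling gave 0 and 10, and the fits that left out 1 library 1 to 5 (without Control replicate 1) positive and 1 (without pNaKtide replicate 3) to 9 negative. Nfkb1, the precursor of the p50 subunit, was among those still called, at -0.35 and -0.42 (adjusted p = 0.0418). Ctnnb1, β-catenin, was negative in both fits, with an interaction of -0.48 (SE 0.11, BH-adjusted p = 0.0249) and -0.43 (adjusted p = 0.00604) with the trend removed. Ctnnb1 measured 311, 285, 281, 290.1 and 271 CPM in Control libraries 1 to 5, 279, 268, 305, 278 and 271 CPM in the pNaKtide libraries, 348, 338, 338, 332 and 342 CPM in the oxLDL libraries and 240.2, 274, 220.5, 214 and 238 CPM in the oxLDL + pNaKtide libraries. The oxLDL values of Ctnnb1 lay above all others. In the Wnt list 2 of 24 genes were positive and 4 negative (8.33% and 16.7%, against 12.4% and 11.4% of all genes tested). The positive member of smallest adjusted p was Tcf7l1 (0.47, 0.15 with the trend removed). Of this list 0 and 4 passed with the trend removed and 0 and 4 by library size alone. With 1 library left out Wnt genes gave 1 to 3 positive and 2 to 6 negative.

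Ribosomal protein genes had the largest share of positive calls among the 58 gene lists examined, with TMM scaling and all 20 libraries. Of the 82 cytosolic ribosomal protein genes tested, 54 were positive and 0 negative by edgeR, with a median of 0.52 against -0.04 over all genes tested, where 12.4% were positive and 11.4% negative. Rpl13 measured 309, 471, 343, 505 and 418 CPM in Control libraries 1 to 5, 542, 559.8, 346, 522 and 514 CPM in the pNaKtide libraries, 252, 232, 253, 311 and 231 CPM in the oxLDL libraries and 514, 499, 510.4, 865 and 599 CPM in the oxLDL + pNaKtide libraries. The oxLDL values of Rpl13, a protein of the large subunit, were the lowest, with Control replicate 1 in their range, and oxLDL + pNaKtide replicate 4 was far above its group. Its interaction was 0.94 (SE 0.22, BH-adjusted p = 0.0249) and 0.40 (adjusted p = 0.0302) with the trend removed. Rpsa, which also serves as a laminin receptor, was at 0.86 (adjusted p = 0.028) and 0.82 (adjusted p = 0.0232), and Rplp0, of the ribosomal stalk, at 0.86 (adjusted p = 0.0302) and 0.63 (adjusted p = 0.0226). With the trend removed 34 of the 82 were positive and 0 negative, with a median of 0.24 against -0.02 over all genes. In the fits that left out 1 library the counts were 28 (without pNaKtide replicate 3) to 72 positive and 0 to 1 (without oxLDL + pNaKtide replicate 3) negative, and by library size alone 32 and 0. Without oxLDL + pNaKtide replicate 4 the positive count was 29. Many ribosomal protein genes have processed copies elsewhere in the genome, and reads shared with them could not be separated here.

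Translation initiation factors moved in both directions, with 14 positive and 8 negative of 37 tested and a median of 0.16, which was -0.02 with scaling by library size alone. After removal of the trend 14 were positive and 1 negative. Scaling by library size alone gave 9 and 13, and leaving out 1 library 7 (without pNaKtide replicate 3) to 15 positive and 3 to 9 negative. The positive members included 3 subunits of the scaffold eIF3, Eif3f (0.80, 0.83 with the trend removed), Eif3h (0.59, 0.44 with the trend removed) and Eif3l (0.57, 0.49 with the trend removed), together with Eif6, which keeps the ribosomal subunits apart (0.76, 0.37 with the trend removed). Eif2b5, a subunit of the exchange factor that the integrated stress response inhibits, was at 0.62 (adjusted p = 0.0305) and 0.47 (adjusted p = 0.0239). The negative member left was Eif2s3x, the γ subunit of eIF2, at -0.82 (adjusted p = 0.0249) and -0.39 (adjusted p = 0.0255). Of 33 ATF4 targets and amino acid genes, 12 were positive and 1 negative, with a median of 0.26 (0.18 with the trend removed), and 6 and 1 passed with the trend removed. The counts were 4 and 5 by library size alone, and 5 (without pNaKtide replicate 3) to 17 positive and 0 to 4 (without oxLDL + pNaKtide replicate 3) negative with 1 library left out. Slc3a2, the heavy chain of several amino acid transporters, was at 0.64 (adjusted p = 0.0249) and 0.37 (adjusted p = 0.0157), and Asns, asparagine synthetase, at 0.46 (adjusted p = 0.0592) and 0.61 (adjusted p = 0.025). Phgdh, the first enzyme of serine synthesis, was at 0.75 (adjusted p = 0.0316) and 0.42 (adjusted p = 0.0512), and Vldlr was the negative member (-0.35, 0.22 with the trend removed).

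Calls among nuclear genes for mitochondrial proteins were mostly positive with TMM scaling, and fewer passed with the trend removed. Complex I had 16 positive and 1 negative of 37 (median 0.36), and 7 and 1 passed in those directions with the trend removed, with a median of 0.11. By library size alone 10 and 1 passed, and over the fits without 1 library 10 (without pNaKtide replicate 3 or oxLDL + pNaKtide replicate 4) to 26 (without Control replicate 1) positive and 1 negative. Complexes II to V had 12 positive and 0 negative of 41 (median 0.27), and 6 and 2 passed in those directions with the trend removed, with a median of 0.04. Library-size scaling gave 6 and 6, and the fits that left out 1 library 6 to 24 (without Control replicate 1) positive and 0 to 1 (without oxLDL + pNaKtide replicate 3) negative. The mitochondrial ribosome had 22 and 1 of 77 (median 0.21), and 10 and 2 passed in those directions with the trend removed, with a median of 0.09. In the fits that left out 1 library the counts were 6 (without pNaKtide replicate 3) to 37 (without Control replicate 1) positive and 1 to 6 (without oxLDL + pNaKtide replicate 3) negative, and by library size alone 8 and 5. Ndufa3, an accessory subunit of complex I, was at 0.80 (adjusted p = 0.0249) and 0.42 (adjusted p = 0.0115), and Atp5h, a stalk subunit of the ATP synthase, at 0.70 (adjusted p = 0.0286) and 0.46 (adjusted p = 0.0115). Cox5b, a subunit of cytochrome c oxidase, was at 0.67 (adjusted p = 0.0319) and 0.53 (adjusted p = 0.0217). Atp5g1, of the proton-conducting ring, was at 0.86 (adjusted p = 0.0249) and 1.19 (adjusted p = 0.0534), and the mitochondrial ribosomal proteins Mrps16 and Mrpl50 at 0.69, 0.87 with the trend removed, and -0.59, -0.10 with the trend removed. Ndufs1, the largest subunit of complex I, was the negative member, at -0.61 (adjusted p = 0.0319) and -0.28 (adjusted p = 0.0855). Ppargc1a, the coactivator of mitochondrial biogenesis, was negative at -0.99 (adjusted p = 0.0417), and -0.33 (adjusted p = 0.286) with the trend removed. Ucp2, an inner membrane carrier, was positive at 0.82 (adjusted p = 0.0262) and 0.66 (adjusted p = 0.0413).

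More transcripts of the mitochondrial genome passed with the trend removed than without, while the lists of nuclear genes for mitochondrial proteins lost calls: 3 of 15 were positive, with a median of 0.19, and 13 of 15 with the trend removed, with a median of 0.99. Scaling by library size alone gave 1 and 0, and leaving out 1 library 1 to 5 (without Control replicate 5 or oxLDL replicate 3) positive and 0 to 1 (without oxLDL replicate 4) negative. Their median GC content was 36%, and the 318 genes under 40% GC are the smallest of the 7 bins from which the trend can be read. mt-Co1 measured 16024, 15611, 15418, 15409 and 11466 CPM in Control libraries 1 to 5, 17885, 17499, 16413, 15791 and 16674 CPM in the pNaKtide libraries, 11415, 12132, 15621, 12171 and 11874 CPM in the oxLDL libraries and 22392, 22044, 18242, 16039 and 19363 CPM in the oxLDL + pNaKtide libraries. The interaction of mt-Co1, a catalytic subunit of cytochrome c oxidase, was 0.45 (SE 0.17, BH-adjusted p = 0.082) and 1.06 (adjusted p = 0.00434) with the trend removed. All 5 values with both agents lay above every Control and oxLDL value and overlapped the pNaKtide range. For mt-Rnr1, the small ribosomal RNA, the values were 0.70 (adjusted p = 0.0402) and 1.45 (adjusted p = 0.014). The median share of reads on the mitochondrial genome was 4.38% in Control, 4.67% in pNaKtide, 5.12% in oxLDL and 6.07% in oxLDL + pNaKtide.

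In glycolysis and the TCA cycle 12 genes were positive and 4 negative of 36, with a median of 0.25 (0.11 with the trend removed), and 5 and 1 passed with the trend removed. Aldoa counts under 2 gene identifiers that share its symbol. The counts were 5 and 8 by library size alone, and 6 to 20 (without Control replicate 1) positive and 3 to 6 negative with 1 library left out. The positive side held enzymes of glycolysis, Gapdh (0.89, 0.51 with the trend removed), Eno1 (0.83, 0.50 with the trend removed), Gpi1 (0.65, 0.50 with the trend removed) and Tpi1 (0.70, 0.49 with the trend removed), and all 4 passed in both fits. The negative side held mitochondrial enzymes, Pdha1 of pyruvate dehydrogenase (-0.54, adjusted p = 0.0286), the succinyl-CoA ligase subunits Sucla2 (-0.62, adjusted p = 0.0352) and Suclg2 (-0.49, adjusted p = 0.0414), and Idh3a of isocitrate dehydrogenase (-0.45, adjusted p = 0.0751). Once the trend was removed these 4 were at -0.23, -0.19, -0.09 and -0.11, and none of them passed. Among 24 genes of fatty acid oxidation, 3 were positive, led by Etfb (0.70, 0.19 with the trend removed), and 3 negative, 1 and 1 passed with the trend removed and 1 and 7 by library size alone, and Acadm, which starts the oxidation of medium-chain fatty acids, was negative in both fits at -0.62 (adjusted p = 0.034) and -0.50 (adjusted p = 0.0307). For fatty acid oxidation genes the range with 1 library left out was 1 to 6 (without Control replicate 1) positive and 1 (without Control replicate 4 or pNaKtide replicate 3) to 4 negative. The 12.5% and 12.5% called with all libraries lay near the 12.4% and 11.4% of all genes tested.

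Antioxidant genes, many of them targets of the transcription factor Nrf2, were positive in 17 of 39 and negative in 2, with a median of 0.39. With the trend removed 8 were positive and 0 negative (median 0.16). By library size alone 8 and 8 passed, and over the fits without 1 library 7 (without Control replicate 4 or pNaKtide replicate 3 or oxLDL + pNaKtide replicate 4) to 22 positive and 1 to 5 (without oxLDL + pNaKtide replicate 3) negative. Gstm1 measured 57.4, 80.8, 79.2, 83.4 and 79.8 CPM in Control libraries 1 to 5, 102, 96.9, 71.9, 83.5 and 85.1 CPM in the pNaKtide libraries, 48.8, 43, 56, 63.2 and 46.3 CPM in the oxLDL libraries and 95.4, 85, 83.9, 131 and 111 CPM in the oxLDL + pNaKtide libraries. Gstm1, a glutathione transferase, was lowest in the oxLDL libraries, with Control replicate 1 in their range. Its interaction was 0.77 (SE 0.19, BH-adjusted p = 0.0249) and 0.50 (adjusted p = 0.0119) with the trend removed. G6pdx, which makes the NADPH that glutathione reduction draws on, was at 0.67 (adjusted p = 0.0349) and 0.55 (adjusted p = 0.0457), and Prdx2, a peroxiredoxin, at 0.57 (adjusted p = 0.0594) and 0.52 (adjusted p = 0.0454). Sod3, the extracellular superoxide dismutase, was at 0.75 (adjusted p = 0.0343) and 0.68 (adjusted p = 0.0734), and the ferritin chain gene Fth1 at 0.59 (adjusted p = 0.0521) and 0.37 (adjusted p = 0.0827). Gclc, the catalytic subunit for glutathione synthesis, had the opposite sign at -0.49 (adjusted p = 0.0341) and -0.30 (adjusted p = 0.127). Hmox1, heme oxygenase 1 and a usual readout of Nrf2, measured 181 ± 21.4 CPM in Control, 179 ± 19.1 CPM with pNaKtide, 159 ± 19.3 CPM with oxLDL and 176 ± 13.5 CPM with both, with an interaction of 0.16 (SE 0.14, adjusted p = 0.463), and Nqo1, another such readout, had an interaction of -0.30 (adjusted p = 0.142), and with the trend removed they were at -0.04 (adjusted p = 0.85) and -0.14 (adjusted p = 0.537). Of 11 NADPH oxidase and other oxidant source genes, Noxo1 was positive (1.58, adjusted p = 0.0412) and Nox4, an oxidase of adipocytes, negative (-0.90, adjusted p = 0.05), and neither passed with the trend removed (1.37 and -0.24). Library-size scaling gave 1 and 1, and the fits that left out 1 library 1 to 2 (without Control replicate 1 or pNaKtide replicate 1 or pNaKtide replicate 2 or oxLDL + pNaKtide replicate 3) positive and 0 (without pNaKtide replicate 3) to 1 negative.

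Cholesterol synthesis and its control had 10 positive and 4 negative of 26 (median 0.20), and 6 and 1 passed in those directions with the trend removed, with a median of 0.21. In the fits that left out 1 library the counts were 8 to 13 positive and 2 (without pNaKtide replicate 3) to 5 negative, and by library size alone 7 and 6. Scap, the escort of SREBP proteins, was at 0.59 (adjusted p = 0.0242) and 0.32 (adjusted p = 0.0447), and Dhcr7, the last enzyme of cholesterol synthesis, at 0.68 (adjusted p = 0.0249) and 0.56 (adjusted p = 0.0115). Insig1, which retains SREBP proteins in the endoplasmic reticulum, had the opposite sign at -0.70 (adjusted p = 0.0319) and -0.57 (adjusted p = 0.037). Hmgcs1, an early enzyme of the pathway, was at -0.64 (adjusted p = 0.0466) and -0.16 (adjusted p = 0.293), and Sc5d, a late one, at -0.79 (adjusted p = 0.0268) and -0.22 (adjusted p = 0.324). The fourth negative member was the sterol carrier Stard4 (-0.57, adjusted p = 0.0701, -0.07 with the trend removed).

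Targets of the oxysterol receptor LXR and genes of cholesterol efflux were positive in 7 of 17 and negative in 2 (median 0.37), and 6 and 2 passed in those directions with the trend removed, with a median of 0.17. Scaling by library size alone gave 5 and 5, and leaving out 1 library 4 (without Control replicate 4 or pNaKtide replicate 3 or oxLDL + pNaKtide replicate 4) to 8 positive and 0 to 4 (without Control replicate 1) negative. Lpcat3 measured 378, 527, 496, 508 and 482 CPM in Control libraries 1 to 5, 526, 527, 432, 486 and 493 CPM in the pNaKtide libraries, 320.1, 319, 362, 356 and 318 CPM in the oxLDL libraries and 567, 524, 412, 621 and 656 CPM in the oxLDL + pNaKtide libraries. Lpcat3, which puts polyunsaturated chains into membrane phospholipid, was lower in all 5 oxLDL libraries than in any other library. Its interaction was 0.69 (SE 0.16, BH-adjusted p = 0.0249) and 0.59 (adjusted p = 0.00923) with the trend removed. The receptor genes themselves, Nr1h2 (LXRβ, 0.73, adjusted p = 0.0292) and Nr1h3 (LXRα, 0.67, adjusted p = 0.0319), and Pltp, the phospholipid transfer protein (0.91, adjusted p = 0.0305), were at 0.34 (adjusted p = 0.0518), 0.34 (adjusted p = 0.0697) and 0.58 (adjusted p = 0.059) with the trend removed. The negative members were Mylip, a ubiquitin ligase (-0.33, adjusted p = 0.0618, and -0.27, adjusted p = 0.0823 with the trend removed), and Arl4c (-0.79, adjusted p = 0.0711, and -0.82, adjusted p = 0.0715). Abca1, the main cholesterol exporter, measured 124 ± 23 CPM in Control, 118 ± 24.9 CPM with pNaKtide, 152 ± 25.2 CPM with oxLDL and 131 ± 57.1 CPM with both, with an interaction of -0.14 (SE 0.31, adjusted p = 0.793) and 0.17 (adjusted p = 0.642) with the trend removed.

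Fatty acid and triglyceride synthesis had 10 positive and 3 negative of 29, and 8 and 0 passed in those directions with the trend removed, with a median of 0.09. The counts were 7 and 6 by library size alone, and 7 to 13 positive and 1 to 5 (without Control replicate 1 or oxLDL + pNaKtide replicate 2) negative with 1 library left out. The median of 0.13 was -0.06 with scaling by library size alone. Elovl1, an elongase of very long chains (0.73, 0.59 with the trend removed), the desaturases Fads1 (0.54, 0.48 with the trend removed) and Fads3 (0.63, 0.54 with the trend removed), and Dgat1, the last step to triglyceride (0.66, 0.36 with the trend removed), passed in both fits. Fasn, fatty acid synthase, was at 0.58 (adjusted p = 0.0484) and 0.43 (adjusted p = 0.0496), and measured 1499.5 ± 121 CPM in Control, 1536 ± 208 CPM with pNaKtide, 1023 ± 36.6 CPM with oxLDL and 1570.4 ± 410.5 CPM with both. Acsl4, which activates arachidonic acid, was negative at -0.89 (adjusted p = 0.028) but -0.10 (adjusted p = 0.653) with the trend removed. Cd36, the scavenger receptor that takes up oxidized LDL, had an interaction of -0.73 (SE 0.20, BH-adjusted p = 0.0316), and its sign turned with the trend removed (0.08, adjusted p = 0.748). It measured 749 ± 97.3 CPM in Control, 749 ± 156 CPM with pNaKtide, 1086 ± 133 CPM with oxLDL and 654 ± 127 CPM with both. Of 19 scavenger and lipoprotein receptors, 2 were positive, among them Scarb1 (0.48, 0.21 with the trend removed), and 4 negative, led by Colec12 (-0.65, 0.00 with the trend removed), and 1 and 1 passed with the trend removed and 1 and 5 by library size alone. Among the scavenger and lipoprotein receptors the fits that left out 1 library gave 1 to 2 positive and 2 to 5 negative. With all libraries 10.5% and 21.1% of these receptors were called, against 12.4% and 11.4% of all genes tested.

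Among 26 transcription factors of the adipocyte 6 were positive and 3 negative, and 2 and 2 passed with the trend removed. By library size alone 2 and 5 passed, and over the fits without 1 library 2 (without Control replicate 4 or Control replicate 5 or pNaKtide replicate 3 or oxLDL + pNaKtide replicate 5) to 8 positive and 2 to 5 (without Control replicate 1) negative. Pparg, the master regulator of fat cells, measured 162 ± 19.1 CPM in Control, 169.9 ± 19.3 CPM with pNaKtide, 145 ± 11 CPM with oxLDL and 161 ± 7.24 CPM with both, and its interaction was 0.08 (SE 0.13, adjusted p = 0.722), and 0.38 (adjusted p = 0.0697) with the trend removed, which passed only then. Cebpa, its partner, was at 0.45 (adjusted p = 0.0639) and 0.07 (adjusted p = 0.818) with the trend removed, and Klf4, an early factor of the program, at -0.62 (adjusted p = 0.0462) and -0.79 (adjusted p = 0.0235). Ebf2, a factor of brown fat identity, was the negative member of smallest adjusted p, at -0.73 (adjusted p = 0.0418) and -0.29 (adjusted p = 0.399). Fabp4, Lpl, Plin1 and Lep, products of mature fat cells, had interactions of -0.16, -0.07, 0.15 and 0.34 with adjusted p of 0.455, 0.778, 0.5 and 0.842, none past the threshold. In the fit with the trend removed Lpl turned sign and passed at 0.45 (adjusted p = 0.0563), and Fabp4, Plin1 and Lep, at 0.31, -0.14 and 0.45, did not pass. Of 27 secreted and identity genes, 5 were positive and 2 negative (18.5% and 7.41%, against 12.4% and 11.4% of all genes tested). Among them 6 and 0 passed with the trend removed and 2 and 3 by library size alone. With 1 library left out the secreted and identity genes gave 2 (without Control replicate 5) to 8 (without Control replicate 1) positive and 2 to 3 negative. Agt, angiotensinogen, was positive in both fits at 0.77 (adjusted p = 0.0275) and 0.46 (adjusted p = 0.0249), as was Serpina3n, a protease inhibitor, at 0.53 (adjusted p = 0.0399) and 0.43 (adjusted p = 0.0434). Nampt, an NAD-producing enzyme that adipocytes also secrete, was at -0.65 (adjusted p = 0.0303) with a turned sign once the trend was removed (0.09, adjusted p = 0.802). Adipoq, adiponectin, measured 1044 ± 151 CPM in Control, 1126 ± 206 CPM with pNaKtide, 914 ± 123 CPM with oxLDL and 1243 ± 113 CPM with both, with an interaction of 0.33 (SE 0.18, adjusted p = 0.208), and passed only with the trend removed, at 0.42 (adjusted p = 0.0761). In the list of lipid droplet and lipolysis genes Pnpla2, the first lipase of stored fat (0.58, adjusted p = 0.0358, and 0.22, adjusted p = 0.222 with the trend removed), and Lipe, the hormone-sensitive lipase (0.45, adjusted p = 0.0656, and 0.17, adjusted p = 0.459), were positive among 23 tested, and 0 were negative by edgeR, while 2 and 2 passed with the trend removed and 1 and 1 by library size alone. For lipid droplet and lipolysis genes the range with 1 library left out was 1 to 5 (without Control replicate 1) positive and 0 to 1 negative. The 8.7% and 0% of them called with all libraries lay below the 12.4% and 11.4% of all genes tested.

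Lysosome and autophagy genes were positive in 17 of 42 and negative in 4 (median 0.30), and 14 and 2 passed in those directions with the trend removed, with a median of 0.21. Library-size scaling gave 10 and 9, and the fits that left out 1 library 10 (without Control replicate 4 or pNaKtide replicate 3) to 23 positive and 1 (without Control replicate 5 or pNaKtide replicate 3 or oxLDL + pNaKtide replicate 5) to 5 negative. Gabarap measured 291, 425, 385, 432 and 368 CPM in Control libraries 1 to 5, 455, 441, 349, 377 and 382 CPM in the pNaKtide libraries, 271, 247, 322, 314 and 248 CPM in the oxLDL libraries and 454, 429, 392, 587 and 469.7 CPM in the oxLDL + pNaKtide libraries. Gabarap, which is conjugated to the membrane of autophagosomes, was lowest in the oxLDL libraries, again with Control replicate 1 in their range. Its interaction was 0.66 (SE 0.17, BH-adjusted p = 0.0282) and 0.54 (adjusted p = 0.00931) with the trend removed. Map1lc3a, of the same family of autophagosome proteins, was at 0.86 (adjusted p = 0.0263) and 0.32 (adjusted p = 0.0555). Ctsa, protective protein cathepsin A, was at 0.69 (adjusted p = 0.0302) and 0.53 (adjusted p = 0.0364), and Atp6v0d1, a subunit of the proton pump, at 0.53 (adjusted p = 0.038) and 0.33 (adjusted p = 0.0363). Ctsl, cathepsin L, had the opposite sign at -0.35 (adjusted p = 0.0507), which turned with the trend removed (0.19, adjusted p = 0.69). Among 29 chaperones and unfolded protein response genes, 5 were positive and 3 negative, 8 and 3 passed with the trend removed and 2 and 6 by library size alone, and Calr, a calcium-binding chaperone, passed in both fits at 0.52 (adjusted p = 0.0436) and 0.53 (adjusted p = 0.0226). Among chaperones and unfolded protein response genes the fits that left out 1 library gave 4 to 6 positive and 1 to 5 (without Control replicate 1 or oxLDL + pNaKtide replicate 3) negative. With all libraries 17.2% and 10.3% of these genes were called, against 12.4% and 11.4% of all genes tested. The smallest adjusted p in each direction belonged to Edem2 (0.50, 0.34 with the trend removed), of glycoprotein disposal, and Dnajc3 (-0.61, -0.06 with the trend removed), an inhibitor of the kinase PERK. Heat shock genes were positive in 2 of 21 and negative in 5, led by Hsp90aa1, an inducible form of HSP90, at -0.81 (adjusted p = 0.0225) and -0.35 (adjusted p = 0.05), with the cochaperone Bag3 on the positive side (0.51, 0.24 with the trend removed), and 1 and 1 passed with the trend removed and 1 and 8 by library size alone. With 1 library left out heat shock genes gave 1 to 8 (without Control replicate 1) positive and 4 to 7 negative.

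**Figure D4:**
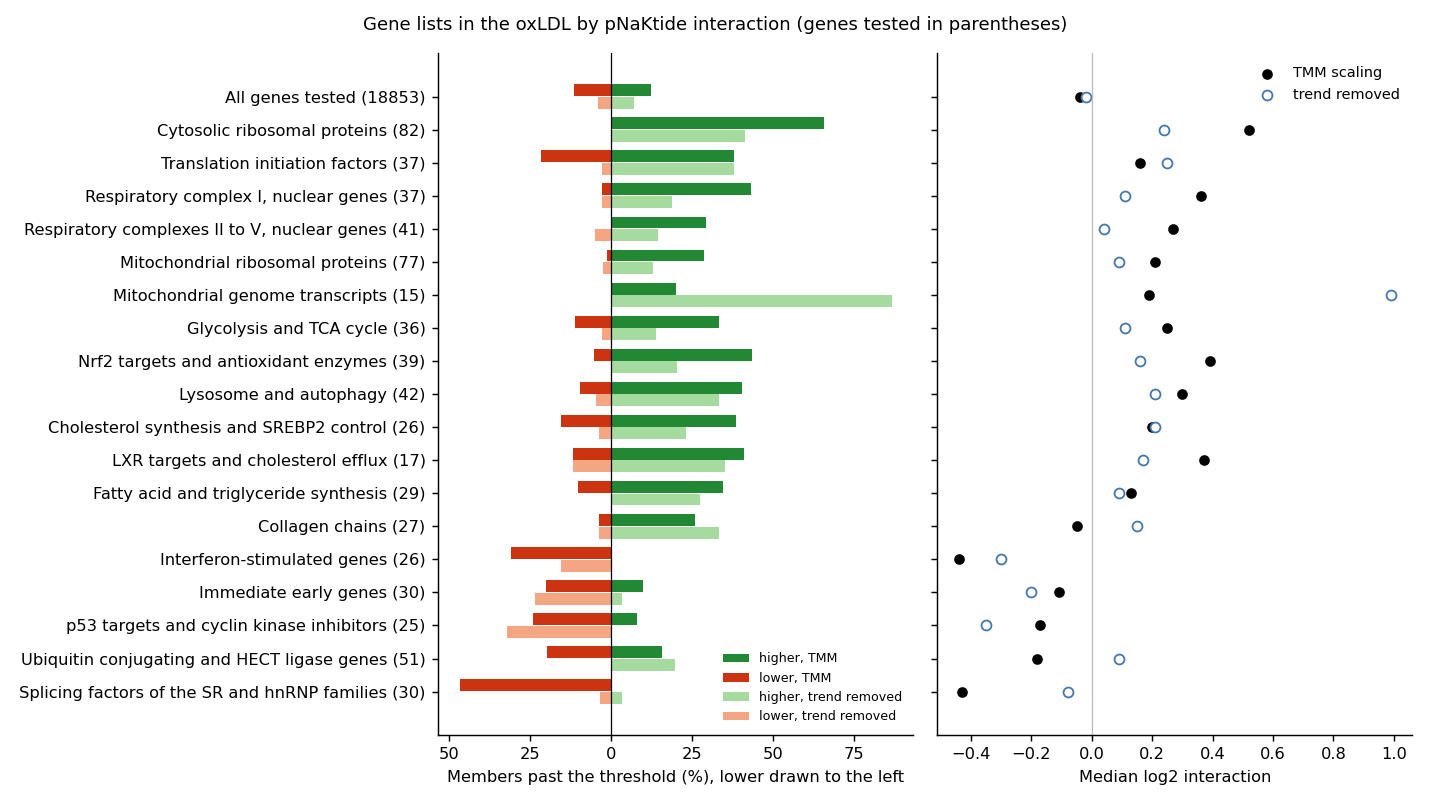
Gene lists, with the number of genes tested in parentheses: left, the percentage of members called positive (right of the line) and negative (left of it) with TMM scaling (dark) and with each library's GC and length trend removed (light), and right, the median log2 interaction in both fits. Ribosomal proteins lie at 0.52 and 0.24 and interferon-stimulated genes at -0.44 and -0.30, while the medians of the collagens and the ubiquitin genes change sign with the trend removed, and those of fatty acid synthesis and translation initiation change sign with scaling by library size alone.

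Of 27 collagen chains in the matrix list, 7 were positive and 1 negative, with a median of -0.05 that was 0.15 with the trend removed, where 9 and 1 passed. In the fits that left out 1 library the counts were 3 (without Control replicate 2 or Control replicate 4 or pNaKtide replicate 3 or oxLDL + pNaKtide replicate 4) to 10 positive and 0 to 3 (without Control replicate 1) negative, and by library size alone 3 and 1. Col6a2 measured 2267, 3182, 2787, 3363 and 3161 CPM in Control libraries 1 to 5, 2459, 2488, 1931, 3162 and 3237 CPM in the pNaKtide libraries, 1807, 1841, 1924, 2006 and 1939 CPM in the oxLDL libraries and 3050.2, 2892, 2306, 3962 and 4172 CPM in the oxLDL + pNaKtide libraries. The 5 oxLDL values of Col6a2, a chain of the microfibrillar collagen around fat cells, lay below all others except pNaKtide replicate 3. Its interaction was 0.94 (SE 0.22, BH-adjusted p = 0.0249) and 0.65 (adjusted p = 0.0114) with the trend removed, and its partner chain Col6a1 was at 0.77 (adjusted p = 0.0265) and 0.56 (adjusted p = 0.014). The fibrillar chains Col1a1 (0.76, 0.58 with the trend removed) and Col1a2 (0.56, 0.45 with the trend removed) and the basement membrane chains Col15a1 (0.75, 0.60 with the trend removed) and Col4a2 (0.51, 0.30 with the trend removed) had the same sign. Col4a5, another basement membrane chain, was the negative member at -0.53 (adjusted p = 0.0586) and -0.43 (adjusted p = 0.0335). Ogn measured 7.84, 4.52, 3.8, 4.43 and 2.56 CPM in Control libraries 1 to 5, 2.34, 2.57, 6.07, 4.27 and 3.24 CPM in the pNaKtide libraries, 17.9, 14.6, 11.3, 10.6 and 13.7 CPM in the oxLDL libraries and 2.03, 3.86, 4.85, 2.29 and 1.95 CPM in the oxLDL + pNaKtide libraries. Ogn, osteoglycin, a small leucine-rich proteoglycan like asporin, was higher in each oxLDL library than in any of the other 15. Its interaction was -1.84 (SE 0.41, BH-adjusted p = 0.0235) and -1.01 (adjusted p = 0.0445) with the trend removed. Over the 33 proteoglycans and glycoproteins tested, 3 were positive, Loxl1 (0.80, 0.46 with the trend removed), Efemp2 (0.60, 0.41 with the trend removed) and Sparc (0.49, 0.38 with the trend removed), and 4 negative, Aspn and Ogn together with Postn (-0.56, -0.14 with the trend removed) and Lox (-0.52, -0.02 with the trend removed). Postn, periostin, and Lox, a collagen crosslinking oxidase, did not pass with the trend removed. Over this list 3 and 2 passed with the trend removed and 3 and 7 by library size alone, and of 27 laminins and integrins 3 were positive and 3 negative, where 4 and 0 passed with the trend removed and 1 and 4 by library size alone. For proteoglycans and glycoproteins the range with 1 library left out was 2 to 7 (without oxLDL + pNaKtide replicate 3) positive and 4 to 6 negative. Among laminins and integrins the fits that left out 1 library gave 1 (without Control replicate 4 or pNaKtide replicate 3 or oxLDL + pNaKtide replicate 5) to 4 positive and 0 (without Control replicate 4 or Control replicate 5 or pNaKtide replicate 3 or oxLDL + pNaKtide replicate 4) to 5 (without Control replicate 1) negative. With all libraries the shares called were 9.09% and 12.1% of the proteoglycans and glycoproteins and 11.1% and 11.1% of the laminins and integrins, near the 12.4% and 11.4% of all genes tested. The pNaKtide libraries were not alike on these lists. The median deviation of the collagens from each gene's mean log2 CPM over the 20 libraries was -0.40, -0.38, -0.34, 0.28 and 0.31 in pNaKtide replicates 1 to 5, against 0.07 to 0.19 in Control, -0.26 to 0.08 in oxLDL and -0.18 to 0.11 in oxLDL + pNaKtide. It was -0.30, -0.31, -0.23, 0.20 and 0.21 for the proteoglycans and glycoproteins and -0.33, -0.31, -0.20, 0.23 and 0.22 for the laminins and integrins, so replicates 1 to 3 lay low and replicates 4 and 5 high on all 3 lists. Without pNaKtide replicate 4 or 5 the collagens had 10 positive and 1 negative (median 0.17) and 10 positive and 1 negative (median 0.18), and without replicate 1, 2 or 3 they had 5 positive and 1 negative (median -0.11), 6 positive and 1 negative (median 0.08) and 3 positive and 0 negative (median 0.14). The part of this split in the interactions was not tested otherwise.

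Tgfb1, the growth factor that drives matrix production, was the positive member among 31 genes of the BMP and TGF-β pathway, and 7 were negative, while with the trend removed 1 was positive and 1 negative. Scaling by library size alone gave 1 and 11, and leaving out 1 library 1 to 2 (without pNaKtide replicate 4 or pNaKtide replicate 5) positive and 2 (without pNaKtide replicate 3) to 11 (without Control replicate 1) negative. Tgfb1 measured 46.8, 78.7, 62.3, 90.6 and 73.3 CPM in Control libraries 1 to 5, 76, 76.2, 48.7, 86.8 and 87 CPM in the pNaKtide libraries, 42.3, 39.8, 38, 48.9 and 38.8 CPM in the oxLDL libraries and 79.8, 84.8, 64.5, 111 and 89.8 CPM in the oxLDL + pNaKtide libraries. The oxLDL values were the lowest apart from those of Control replicate 1 and pNaKtide replicate 3, which overlapped the top of their range. The interaction of Tgfb1 was 0.95 (SE 0.23, BH-adjusted p = 0.0249) and 0.55 (adjusted p = 0.0358) with the trend removed. The receptor genes had the opposite sign, Tgfbr1 at -0.94 (adjusted p = 0.0435) and Bmpr1a at -0.75 (adjusted p = 0.0316), and with the trend removed they were at -0.25 (adjusted p = 0.167) and -0.06 (adjusted p = 0.691). Fst, follistatin, which traps activins, was negative in both fits (-0.53, -0.73 with the trend removed). Among 32 JAK-STAT genes, 1 was positive and 7 negative, with Lifr, the receptor for leukemia inhibitory factor, at -0.96 (adjusted p = 0.0265) and -0.40 (adjusted p = 0.053) and Jak2 at -0.82 (adjusted p = 0.0286) and -0.34 (adjusted p = 0.109). Once the trend was removed 4 JAK-STAT genes were positive and 1 negative. The counts were 0 and 13 by library size alone, and 0 to 4 (without Control replicate 1) positive and 2 (without pNaKtide replicate 3) to 11 (without Control replicate 1) negative with 1 library left out. The positive member with TMM scaling was Ifnar2, a chain of the interferon receptor (0.40, 0.41 with the trend removed). Itga5, the fibronectin receptor chain, was positive in both fits at 0.72 (adjusted p = 0.028) and 0.51 (adjusted p = 0.0145), and so was Lama4, a laminin chain of adipocyte basement membrane, at 0.49 (adjusted p = 0.0612) and 0.65 (adjusted p = 0.00539), whereas Itgav, a partner chain in receptors that activate latent TGF-β, was at -0.67 (adjusted p = 0.056) and -0.10 (adjusted p = 0.701).

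With all 20 libraries the interferon-stimulated genes that passed were all negative. Type I interferon acts through a complex of transcription factors that binds an element of the form GAAANNGAA upstream of these genes, and many of the induced proteins bind viral RNA. Of 26 such genes tested, 0 were positive and 8 negative, with a median of -0.44 against -0.04 over all genes. Once the trend was removed 0 and 4 passed and the median was -0.30. By library size alone 0 and 11 passed, and over the fits without 1 library 0 to 2 (without Control replicate 1) positive and 4 to 9 negative. The oxLDL libraries were not alike on this list. Its median deviation from each gene's mean log2 CPM was 0.61, -0.06, 0.16, 0.51 and -0.10 in oxLDL replicates 1 to 5. It was 0.00 to 0.12 in Control, -0.37 to 0.10 in pNaKtide and -0.47 to -0.03 in oxLDL + pNaKtide. The upstream sequences of 3 neighbouring genes are shown because they carry the element and had large interactions: Ifit1 and Ifit3, which are in the list, and Ifit3b, a near-identical neighbour of Ifit3 that is not. Each is the 250 bases before the RefSeq start site on the plus strand of chromosome 19 in GRCm38.p6, at chr19:34640639-34640888, chr19:34583279-34583528 and chr19:34607707-34607956 in that order, and capitals mark matches to GAAANNGAA, all of them on the reverse strand, some of which overlap.
Ifit1: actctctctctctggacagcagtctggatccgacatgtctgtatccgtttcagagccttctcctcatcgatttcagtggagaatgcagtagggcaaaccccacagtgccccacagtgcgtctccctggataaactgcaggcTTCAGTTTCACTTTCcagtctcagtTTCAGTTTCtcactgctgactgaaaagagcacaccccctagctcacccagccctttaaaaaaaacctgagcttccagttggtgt
Ifit3: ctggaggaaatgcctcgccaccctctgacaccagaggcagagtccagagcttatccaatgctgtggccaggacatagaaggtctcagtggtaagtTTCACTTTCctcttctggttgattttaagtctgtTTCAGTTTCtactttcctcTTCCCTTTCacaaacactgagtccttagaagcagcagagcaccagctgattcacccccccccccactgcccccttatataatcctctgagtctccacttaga
Ifit3b: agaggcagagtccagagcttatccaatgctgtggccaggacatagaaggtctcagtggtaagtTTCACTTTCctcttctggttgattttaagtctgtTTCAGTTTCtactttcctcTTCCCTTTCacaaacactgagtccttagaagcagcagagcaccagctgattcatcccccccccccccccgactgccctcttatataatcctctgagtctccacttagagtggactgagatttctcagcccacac

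The element was searched on both strands of the 250 bases before each start site. Each of the 3 sequences held 3 matches. At least 1 match lay in 839 of the 11211 tested genes with such a sequence (7.48%) and in 10 of the 19 interferon-stimulated genes with one (52.6%). Among the 4 negative members with a sequence it lay in 3, Ifit1, Ifit3 and Ifih1, and not in Ifit2. A match describes the letters only.

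Iigp1 measured 2.64, 1.48, 2.32, 1.24 and 1.46 CPM in Control libraries 1 to 5, 2.56, 2.32, 2.82, 1.99 and 1.8 CPM in the pNaKtide libraries, 4.76, 3.13, 3.15, 3.75 and 3.83 CPM in the oxLDL libraries and 0.565, 0.625, 0.866, 1.31 and 1.26 CPM in the oxLDL + pNaKtide libraries. Iigp1, an interferon-inducible GTPase, was higher in all 5 oxLDL libraries than in any other, and 3 of the 5 libraries with both agents lay below every other library. Its interaction was -2.36 (SE 0.34, BH-adjusted p = 0.00639), the smallest adjusted p of all genes tested, and -1.68 (adjusted p = 0.00933) with the trend removed. The gene lies at chromosome 18, 60376027 to 60392634. Ifit3 measured 3.44, 2.96, 3.16, 4.23 and 2.1 CPM in Control libraries 1 to 5, 3.46, 3.42, 3.96, 9.1 and 12.1 CPM in the pNaKtide libraries, 9.03, 4, 4.48, 7.97 and 3.61 CPM in the oxLDL libraries and 1.92, 3.02, 4.07, 2.78 and 2.14 CPM in the oxLDL + pNaKtide libraries. The pattern of Ifit3, an RNA-binding antiviral protein, was less even: pNaKtide replicates 4 and 5 and oxLDL replicates 1 and 4 were high, and all 5 libraries with both agents fell in the range of Control or below it. Its interaction was -2.06 (SE 0.49, BH-adjusted p = 0.0249) and -1.96 (adjusted p = 0.0549) with the trend removed. Here pNaKtide alone differed from Control by 1.01 (adjusted p = 0.834), which did not pass, and oxLDL alone by 0.89 (adjusted p = 0.0552). Ifit3b, a near-identical neighbour of Ifit3 whose reads may be shared with it, was at -2.32 (SE 0.51, BH-adjusted p = 0.0235) and -2.10 (adjusted p = 0.0451). Ifit1, of the same cluster, was at -1.74 (adjusted p = 0.0303) and -1.34 (adjusted p = 0.152). Usp18, which removes the ubiquitin-like modifier ISG15, was at -0.56 (adjusted p = 0.0424) and -0.62 (adjusted p = 0.0243). The other members past the threshold, named after their values were seen, were Mx1 (-1.75, adjusted p = 0.076), Mx2 (-1.36, adjusted p = 0.0826), Ifit2 (-1.32, adjusted p = 0.0915) and Ifih1 (-0.74, adjusted p = 0.0909), and with the trend removed they were at -1.55, -1.30, -0.78 and -0.17, none of them past the threshold. Of the 20 fits that left out 1 library, Mx1 passed in 10, Mx2 in 8, Ifit2 in 9 and Ifih1 in 6. Antigen presentation by MHC class I, which interferon also raises, had 4 positive and 0 negative of 18 by edgeR, led by the proteasome activator Psme1 (0.64, 0.29 with the trend removed), while 4 and 0 passed with the trend removed and 2 and 1 by library size alone, and of 16 chemokines and cytokines 0 were positive and 1 negative, Cxcl12 (-0.31, -0.21 with the trend removed), which passed in 6 of the 20 fits that left out 1 library. With 1 library left out MHC class I genes gave 2 to 8 (without Control replicate 1) positive and 0 negative. Of the chemokines and cytokines 0 and 1 passed with the trend removed, 0 and 3 by library size alone, and 0 positive and 0 to 3 (without Control replicate 1 or oxLDL + pNaKtide replicate 3) negative with 1 library left out.

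Among immediate early genes, 3 of 30 were positive and 6 negative (median -0.11), and 1 and 7 passed with the trend removed (median -0.20). Library-size scaling gave 1 and 6, and the fits that left out 1 library 2 to 6 (without Control replicate 1) positive and 4 to 7 negative. Dusp4 measured 35.8, 39.2, 34.7, 36.8 and 38.6 CPM in Control libraries 1 to 5, 40.4, 41.3, 37.1, 35.4 and 33.6 CPM in the pNaKtide libraries, 42.8, 39.7, 46.3, 41.1 and 38.7 CPM in the oxLDL libraries and 33.1, 34.7, 31.3, 31.8 and 31.3 CPM in the oxLDL + pNaKtide libraries. Dusp4, a phosphatase that switches off MAP kinases, was lower in all libraries with both agents than in any oxLDL library, and Control and pNaKtide lay between and overlapped both. Its interaction was -0.38 (SE 0.12, BH-adjusted p = 0.0382) and -0.62 (adjusted p = 0.00434) with the trend removed. Klf6, a zinc finger factor, was negative in the first fit only (-0.77, -0.21 with the trend removed). Dusp6, a related phosphatase, was at -0.51, -0.43 with the trend removed, and Btg2 and Klf10, growth-restraining early genes, at -0.44, -0.40 with the trend removed and -0.57, -0.36 with the trend removed. Jund, a subunit of AP-1, had the opposite sign, at 0.95 (SE 0.21, BH-adjusted p = 0.0225) and 0.52 (adjusted p = 0.00662) with the trend removed. Jund measured 25.5, 44.1, 29.9, 41 and 40.5 CPM in Control libraries 1 to 5, 40.1, 45.1, 29.7, 42.8 and 41.7 CPM in the pNaKtide libraries, 21.5, 23, 22.3, 30.1 and 23.8 CPM in the oxLDL libraries and 45.6, 43.6, 47.6, 64.2 and 56.3 CPM in the oxLDL + pNaKtide libraries. The oxLDL values of Jund were low and those with both agents were high, with Control replicates 1 and 3 and pNaKtide replicate 3 in the oxLDL range. Of 25 p53 targets and cyclin kinase inhibitors, 2 were positive and 6 negative, and 0 and 8 passed with the trend removed (median -0.35). In the fits that left out 1 library the counts were 0 to 3 positive and 5 to 9 negative, and by library size alone 0 and 8. Cdkn1b, the inhibitor p27, was at -0.97 (adjusted p = 0.0225) and -0.44 (adjusted p = 0.0492), and Cdkn1a, the inhibitor p21, at 0.42 (adjusted p = 0.0811) and 0.20 (adjusted p = 0.217). Phlda3, a p53 target that restrains Akt, was at 0.55 (adjusted p = 0.0543) and 0.08 (adjusted p = 0.652).

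Among genes of RNA splicing and ubiquitin transfer most negative calls were lost with the trend removed. Splicing factors of the SR and hnRNP families were negative in 14 of 30 and positive in 0 (median -0.43), but 1 was positive and 1 negative with the trend removed (median -0.08). Scaling by library size alone gave 0 and 19, and leaving out 1 library 0 positive and 5 (without pNaKtide replicate 3) to 19 negative. Srsf1, a founding SR protein, went from -0.83 (adjusted p = 0.0295) to -0.11 (adjusted p = 0.709), and Hnrnpr from -0.61 (adjusted p = 0.0262) to 0.22 (adjusted p = 0.707), a turned sign. Hnrnpf was the member still negative, at -0.51 (adjusted p = 0.0411) and -0.44 (adjusted p = 0.0432). Ubiquitin conjugating and HECT ligase genes were positive in 8 of 51 and negative in 10 (median -0.18), but 10 and 0 with the trend removed (median 0.09). The counts were 3 and 17 by library size alone, and 6 to 11 positive and 3 (without pNaKtide replicate 3) to 19 (without Control replicate 1) negative with 1 library left out. Ube2l3, a conjugating enzyme that serves Parkin and HECT ligases, was positive at 0.41 (SE 0.11, BH-adjusted p = 0.0295) and 0.58 (adjusted p = 0.00783). Ube2l3 measured 165, 194, 191, 202 and 179 CPM in Control libraries 1 to 5, 208, 197, 175, 186 and 203 CPM in the pNaKtide libraries, 154, 156, 158, 167 and 154 CPM in the oxLDL libraries and 216, 213, 207, 243 and 214 CPM in the oxLDL + pNaKtide libraries. The oxLDL values of Ube2l3 were the lowest, with Control replicate 1 in their range. The HECT ligase genes Itch (-0.77, -0.16 with the trend removed) and Ube3a (-1.07, -0.08 with the trend removed) were negative in the first fit only.

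Markers of other cell types were checked beside these lists. The summed level of 12 mature adipocyte markers was 14800 to 19000 CPM in Control, 16800 to 21500 in pNaKtide, 13900 to 18500 in oxLDL and 18200 to 21100 in oxLDL + pNaKtide, so adipocyte transcripts were present in every group. The 21 preadipocyte and fibroblast markers, 19 of them in the table, summed to 9110 to 11800, 7100 to 10800, 7840 to 8570 and 7640 to 11400 CPM in the same order. Of the adipocyte markers 4 were called positive and 0 negative by edgeR, and of the 19 preadipocyte markers 6 positive and 2 negative. With the trend removed these were 3 and 0 adipocyte and 3 and 1 preadipocyte markers, and by library size alone 2 and 1 and 1 and 2. Leaving out 1 library gave 1 (without Control replicate 5) to 6 positive and 0 negative adipocyte markers and 1 (without Control replicate 2 or Control replicate 4 or pNaKtide replicate 3 or oxLDL + pNaKtide replicate 4) to 7 positive and 0 to 3 negative preadipocyte markers, with 1 and 0 of the latter without oxLDL + pNaKtide replicate 4. The 15 macrophage and leukocyte markers summed to 8.24 to 14.8 CPM in all groups, 4 of them were at 0 in every library, and of the 7 tested 0 were called by edgeR. Endothelial markers summed to 7.45 to 17.4 CPM and skeletal muscle markers to 11.8 to 39.5 over the 20 libraries. A single gene carried most of each sum. Egfl7 measured 6.97 to 17 CPM, with the endothelial genes Pecam1 and Vwf at 0.44 and 0.412 CPM at most. Des measured 10.7 to 37.2 CPM, and the muscle genes Myod1, Myog and Myf5 had 0 reads. Epithelial markers summed to 1.36 to 3.66 CPM in Control, 1.85 to 11.7 in pNaKtide, 1.28 to 2.78 in oxLDL and 2.26 to 3.65 in oxLDL + pNaKtide, and pNaKtide replicate 2 alone was above 3.66. Krt8, a keratin of simple epithelia, reached 5.38 CPM and Epcam and Cdh1, of epithelial adhesion, 1.59 and 1.1 in their highest library. Without that library 5044 genes were called over all genes tested, and its part in the results of single genes was not tested otherwise. Endothelial markers gave 0 calls of 3 tested by edgeR, skeletal muscle markers 1 of 2 and epithelial markers 1 of 5. By library size alone 0 and 0, 0 and 0, 1 and 0 and 0 and 0 macrophage, endothelial, muscle and epithelial markers passed, and with 1 library left out 0 to 1 (without Control replicate 1 or pNaKtide replicate 4) positive and 0 negative, 0 to 1 (without Control replicate 1 or oxLDL + pNaKtide replicate 3) positive and 0 negative, 1 to 2 positive and 0 negative and 0 to 1 positive and 0 negative. These were Des, desmin (0.89, adjusted p = 0.0332, and 0.63, adjusted p = 0.0938 with the trend removed), and Krt14, a keratin at 1.23 ± 0.559 CPM in Control, 0.774 ± 0.276 CPM with pNaKtide, 0.781 ± 0.533 CPM with oxLDL and 1.28 ± 0.189 CPM with both (adjusted p = 0.0804, and 0.217 with the trend removed), named after their values were seen. Prrx1, a factor of mesenchymal progenitors, was the negative preadipocyte marker of smallest adjusted p (-0.59, 0.03 with the trend removed).

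The number of genes past the threshold depended on single libraries. Leaving out 1 library at a time gave 1971 genes (without pNaKtide replicate 3) to 7255 (without Control replicate 1). The libraries whose omission moved the count by more than 1.5 times were these 2, Control replicate 2 (2501), Control replicate 4 (2415), Control replicate 5 (2937), oxLDL replicate 2 (2785), oxLDL replicate 5 (2822) and oxLDL + pNaKtide replicate 4 (2535). Without both Control replicate 1 and oxLDL + pNaKtide replicate 4, 3004 genes were positive and 3271 negative. In all 20 fits 1097 genes remained positive and 802 negative, and in all 20 and the same 20 with the trend removed 365 and 162. Among the genes described above, Atp1b1, Yes1, Aspn, Col6a2, Col6a1, Rpl13, Gstm1, Lpcat3, Gabarap, Iigp1, Usp18, Jund, Dusp4, Ctnnb1, Ube2l3 and Tgfb1 are of the latter. Scaling by library size alone gave 1094 positive and 3611 negative genes in place of 2329 and 2155, with the median of all genes at -0.23 in place of -0.04.

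**Figure D5:**
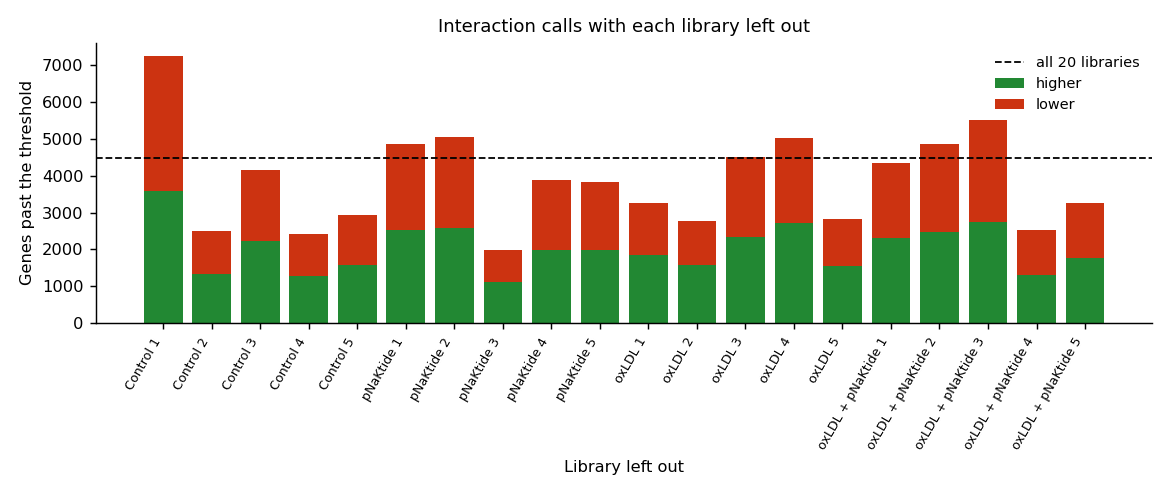
Number of genes past a BH-adjusted p of 0.1 for the interaction (vertical axis) with each of the 20 libraries left out in turn (horizontal axis), as stacked bars of positive (higher) and negative (lower) calls with a dashed line for all 20 libraries. The total runs from 1971 without pNaKtide replicate 3 to 7255 without Control replicate 1, against 4484 with all 20 libraries.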

How the data were processed

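RNA-seq libraries of 3T3-L1 adipocytes, prepared from total RNA with a stranded TruSeq mRNA kit, were measured in 4 groups of 5. Per the submitters' processing notes, the authors used Trimmomatic 0.38, HISAT2 2.1.0 and DESeq2 1.20.0 with the GRCm38 build, and the deposited count table holds whole reads per gene for 54232 genes, not normalized. The deposited FPKM values are the authors' length- and depth-scaled values, and were used here only in an alternative on the log2(FPKM + 1) and log2(FPKM + 0.1) scales. The deposited normalized counts were not used. Neither the strand setting nor the annotation release is stated in the sources used here. The extraction text in the labels names adipose tissue, whereas the other labels name 3T3 cells, as which the samples were treated. The libraries given indoxyl sulphate were not analysed here, except in the alternative fitted to all 30 libraries.

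Genes with more than 14 reads over the 20 libraries (18853) were fitted with edgeR 4.0.16 in R 4.3.3, by the robust quasi-likelihood test on a model of 4 group means with TMM scaling. The interaction and 4 simple contrasts were tested, 2-sided, with BH adjustment over all genes tested and a threshold of 0.1. The SE is the absolute log2 value divided by the square root of F. CPM values are TMM-normalized, given as mean ± SD, and counting error is included in that SD. Depth was 6945498 to 13516334 reads per library. On simulated counts of 18853 genes in this comparison, 84 of 100 genes changed 2-fold and 21 of 100 changed 1.5-fold were recovered, with 9 unchanged genes called. The simulated counts were drawn for each gene on its own, with changes in the oxLDL group alone and no GC trend between libraries. They therefore do not measure the rate of false calls in the real libraries, which differ in that trend.

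The GC and length trend was removed with natural splines per library over genes of at least 1 CPM, from the GENCODE M21 transcripts of GRCm38. Alternatives were other scalings and filters, a threshold of 0.05, a replicate block, thinned counts, DESeq2 1.42.0, limma 3.58.1 on FPKM, all 30 libraries, and each library left out. Added after seeing the data were the fits without both libraries farthest from their groups, without 1 library and the trend together, and without oxLDL + pNaKtide replicate 1 for noncoding RNA models. All 40 pairs of libraries within a group differed beyond counting noise, with a chi-square per degree of freedom of 1.35 to 36.6. The lowest value lies near counting noise, and whether some libraries of a group were technical repeats was not tested. In the median deviation of the collagens pNaKtide replicates 1 and 2 lay close together (-0.40 and -0.38), as did replicates 4 and 5 (0.28 and 0.31). Upstream sequences came from RefSeq, GRCm38.p6, and figures were drawn with Python 3.11.15.

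The comparison, the gene lists and the named genes were chosen with earlier results of these data known. Genes are named by 4 rules: the 12 largest interactions in each direction that passed with every library left out, averaged 3 or more on the log2 CPM scale and had a symbol that is no clone or model name; the 3 largest averaging 1 or more, under any name; in each list and direction, the member of lowest adjusted p; and a list fixed by name. Further members were named as examples after their values were seen, and some genes that the rules select are not reported here. Reads shared between near-identical copies, such as Ifit3 and Ifit3b, cannot be told apart in these counts.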

Additional observations from a re-analysis of the deposited data

Results flagged for a closer look

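The effect of pNaKtide differed between cells with and without oxLDL in 4484 genes by the interaction term of edgeR at a BH-adjusted p of 0.1, which is the comparison the report describes. In 86 of the 856 groups of 5 libraries examined (10%), 1 library lay far from the other 4 by Dixon's criterion, in a gene named in the text. Chance alone does so in about 1 in 20 groups, and genes that share a library are not independent. Most of these values came from Control replicate 1 and pNaKtide replicate 3, the lowest libraries of their groups on the first principal component.

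Control replicate 1 lay above the other 4 libraries of its group, in CPM, for Arid4b (23.4), Frk (9.84), Gabpa (45.2), Lifr (47.8), Lox (235), Mylip (61.7), Ppargc1a (8.32), Prrx1 (107), Zfp948 (14.1), Zfp969 (14.6) and Zfp970 (23.6). It lay below them for Akt2 (255), Atp6v0d1 (300.1), Calr (1398), Dhcr7 (191), Fads1 (149), Fads3 (193), G6pdx (369), Gstm1 (57.4), Mt2 (83.7), Phgdh (125), Slc3a2 (182) and Usp18 (7.12). pNaKtide replicate 3 lay above the other 4 libraries of its group, in CPM, for Acsl4 (42.3), Angpt1 (95.5), Arhgap5 (51.8), Aspn (119), Cdkn1b (24.3), Chuk (48.2), Eif2s3x (198), Fam126b (35.7), Hnrnpf (259.6), Hnrnpr (47.8), Itch (57.1), Psmc6 (74.1), Sc5d (41.7), Srsf1 (71.6), Sucla2 (87.7), Ube3a (40.1) and Vldlr (133). It lay below them for Ctsa (244), Dhcr7 (202), Efemp2 (107), Rpl13 (346), Sf3a2 (30.5), Sod3 (75.9), Sparc (1521), Sphk2 (39.7) and Tgfb1 (48.7).

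oxLDL + pNaKtide replicate 4 lay above the other 4 libraries of its group, in CPM, for Eif3f (417), Eif6 (189), Eno1 (1487), Gapdh (769.8), Hras (132), Ifnar2 (43.7), Mmp23 (13.1), Ndufa3 (177), Rfc2 (52.6), Rpl13 (865), Rpsa (2623) and Ube2l3 (243). It lay below them for Gabpa (12.6), Nox4 (1.31) and Vldlr (78.8). oxLDL + pNaKtide replicate 1 lay above the other 4 libraries of its group, in CPM, for Gclc (17.2), Gm24447 (127), Gm26035 (60.5), Gm26315 (122), Gm26917 (1385) and mt-Rnr1 (1279). oxLDL replicate 3 lay above the other 4 libraries of its group, in CPM, for Etfb (97.6), Gm24447 (7.02), Gm26035 (3.99), Gm26315 (7.14), mt-Co1 (15621) and mt-Rnr1 (504). It lay below them for Col1a1 (1337). oxLDL replicate 4 lay above the other 4 libraries of its group, in CPM, for Bag3 (65), Hmox1 (193), Jund (30.1), Rela (52.2), Rpl13 (311), Tcf7l1 (174) and Zyx (96.6). Control replicate 5 lay below the other 4 libraries of its group, in CPM, for mt-Co1 (11466). pNaKtide replicate 4 lay below the other 4 libraries of its group, in CPM, for Krt14 (0.285).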

How the results depend on the processing

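With the GC and length trend removed 2097 interaction genes passed (1321 higher, 776 lower) in place of 4484 (2329 and 2155). With a replicate block as well it was 2247 (1346 and 901), and with the replicate block alone 5204 (2512 and 2692). A threshold of 0.05 gave 2259 (1222 and 1037), and scaling by library size alone 1094 higher and 3611 lower genes. Without both libraries farthest from their group 3271 genes were lower. The contrast of oxLDL with Control gave 3636 genes with the trend removed, in place of 6835. That of pNaKtide with Control gave 1 gene with all 30 libraries, 10 with the trend removed, 31 by DESeq2 and 7 without both far libraries, in place of 0 by edgeR. That of oxLDL + pNaKtide with pNaKtide gave 1 by library size alone, 5 with all 30 libraries, 36 with the trend removed, 25 by DESeq2 and 4 without both far libraries, in place of 0. Leaving out 1 library gave 1971 to 7255 interaction genes (1125 to 3590 higher and 846 to 3665 lower), 4306 to 8922 for oxLDL against Control, 0 to 1 for pNaKtide against Control, 8035 to 9675 for oxLDL + pNaKtide against oxLDL and 0 to 3 against pNaKtide. The lowest and highest interaction counts were those without pNaKtide replicate 3 and without Control replicate 1. Among named genes past the threshold in either fit, the sign turned with the trend removed for Cav2 (0.12), Cd36 (0.08), Colec12 (0.00), Ctsl (0.19), Hnrnpr (0.22), Lpl (0.45), Nampt (0.09), Prrx1 (0.03) and Vldlr (0.22), and with a replicate block as well these stood at 0.12, 0.08, 0.17, 0.21, 0.44, 0.09, 0.04 and 0.22, Colec12 apart. Of 199 named genes past the threshold, 129 passed with the trend removed, 177 by library size alone, 195 with the replicate block, 196 by DESeq2 and 146 without pNaKtide replicate 3. The causes of these shifts were not tested. Whether the replicate numbers pair the samples in part could not be settled. Deviations of same-numbered libraries correlated at -0.76 to 0.81 (median 0.07), 15 of 30 pairs over 0.1. Those of libraries with different numbers correlated at -0.83 to 0.75 (median -0.04), and 7 of 20 libraries correlated best with one of their own number. Genes near the filter of more than 14 reads in all are limited by counting error, and a common biological coefficient of variation of 14.7% limits the rest.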

Other observations

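Further gene groups were counted at a BH-adjusted p of 0.1 from edgeR, at which 12.4% of all genes tested were positive and 11.4% negative, and a group whose shares lie near or below these, such as the matrix proteases, the clock genes and the histones, gives no result about the group. Genes of DNA replication and mitosis had 8 positive and 9 negative of 51 (15.7% and 17.6%, median 0.02), and 5 and 1 with the GC and length trend removed (median 0.07), 2 and 14 by library size alone, and 2 (without pNaKtide replicate 3) to 11 positive and 2 (without pNaKtide replicate 3) to 12 negative with 1 library left out. Rfc2, of the clamp loader of replication, was at 0.63 (adjusted p = 0.0249) and 0.72 (adjusted p = 0.0275) with the trend removed, and Pola1, the catalytic subunit of DNA polymerase α, at -1.16 (adjusted p = 0.0225) and -0.52 (adjusted p = 0.0606). Contractile and SRF target genes had 4 positive and 2 negative of 25 (16% and 8%, median 0.22), and 2 and 2 with the GC and length trend removed (median 0.18), 2 and 4 by library size alone, and 2 to 6 positive and 1 to 4 (without oxLDL + pNaKtide replicate 3) negative with 1 library left out, with Zyx, zyxin of focal adhesions, at 0.60, 0.35 with the trend removed, and Fhl2, a LIM-domain cofactor, at -0.73, -0.88 with the trend removed. Clock genes had 2 positive and 3 negative of 19 (10.5% and 15.8%, median -0.04), and 1 and 0 with the GC and length trend removed (median -0.11), 2 and 5 by library size alone, and 2 to 3 positive and 0 (without pNaKtide replicate 3) to 5 (without Control replicate 1 or oxLDL + pNaKtide replicate 3) negative with 1 library left out, with Nr1d1, the repressor REV-ERBα, at 0.59, 0.32 with the trend removed, and Clock, an activator, at -0.98, -0.26 with the trend removed. Glucocorticoid-responsive genes had 2 positive and 5 negative of 17 (11.8% and 29.4%, median -0.12), and 0 and 3 with the GC and length trend removed (median -0.16), 0 and 6 by library size alone, and 0 (without Control replicate 4 or pNaKtide replicate 3 or oxLDL + pNaKtide replicate 4) to 3 positive and 2 (without pNaKtide replicate 3) to 6 negative with 1 library left out. Klf9, a direct target of the receptor, was at -0.74 (adjusted p = 0.0293) and -0.50 (adjusted p = 0.0226), and the metallothionein Mt2 at 0.60 (adjusted p = 0.0564) and 0.03 (adjusted p = 0.911).

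Sphingolipid synthesis had 5 positive and 6 negative of 26 (19.2% and 23.1%, median -0.08), and 6 and 1 with the GC and length trend removed (median 0.13), 3 and 7 by library size alone, and 3 to 6 positive and 2 (without Control replicate 4 or oxLDL replicate 5) to 9 negative with 1 library left out, with the kinase Sphk2 at 0.56, 0.27 with the trend removed, and Kdsr, of the second step of ceramide synthesis, at -0.69, -0.04 with the trend removed. Receptor tyrosine kinases and their ligands had 2 positive and 6 negative of 37 (5.41% and 16.2%, median -0.17), and 1 and 3 with the GC and length trend removed (median -0.06), 1 and 8 by library size alone, and 1 to 4 (without Control replicate 1 or oxLDL + pNaKtide replicate 3) positive and 2 (without pNaKtide replicate 3) to 10 (without Control replicate 1) negative with 1 library left out, with Vegfb at 0.64, 0.13 with the trend removed, and epiregulin, Ereg, at -1.13, -0.38 with the trend removed. Matrix proteases and their inhibitors had 1 positive and 2 negative of 23 (4.35% and 8.7%, median -0.16), and 1 and 2 with the GC and length trend removed (median 0.01), 1 and 8 by library size alone, and 1 to 3 (without oxLDL replicate 4) positive and 0 to 5 (without Control replicate 1) negative with 1 library left out, with Mmp23 at 1.08, 0.64 with the trend removed, and Adamts4, an aggrecan-cleaving protease, at -0.69, -0.82 with the trend removed. Regulators of mitochondrial biogenesis had 4 positive and 5 negative of 21 (19% and 23.8%, median -0.06), and 2 and 2 with the GC and length trend removed (median 0.00), 2 and 7 by library size alone, and 3 to 5 positive and 2 (without pNaKtide replicate 3) to 7 negative with 1 library left out, with Gabpa, a factor for respiratory chain genes, at -0.99, -0.34 with the trend removed. Proteasome subunits had 7 positive and 1 negative of 34 (20.6% and 2.94%, median 0.20), and 6 and 0 with the GC and length trend removed (median 0.08), 0 and 6 by library size alone, and 0 to 17 (without Control replicate 1) positive and 0 (without pNaKtide replicate 3) to 4 (without oxLDL + pNaKtide replicate 3) negative with 1 library left out, with the ATPase subunit genes Psmc5 at 0.45, 0.28 with the trend removed, and Psmc6 at -0.84, -0.01 with the trend removed. Cullin ligase genes had 4 positive and 5 negative of 25 (16% and 20%, median -0.29), and 2 and 1 with the GC and length trend removed (median 0.01), 2 and 12 by library size alone, and 3 to 6 positive and 1 (without pNaKtide replicate 3) to 11 (without Control replicate 1) negative with 1 library left out, with Elob at 0.81, 0.18 with the trend removed, and Cul1 at -0.62, -0.21 with the trend removed. Replication-dependent histones had 1 positive and 0 negative of 25 (4% and 0%, median 0.11), and 1 and 1 with the GC and length trend removed (median -0.23), 1 and 2 by library size alone, and 0 (without Control replicate 4 or pNaKtide replicate 3 or oxLDL + pNaKtide replicate 4) to 2 (without oxLDL + pNaKtide replicate 2) positive and 0 to 2 (without Control replicate 1) negative with 1 library left out, the gene being Hist2h2ac (1.02, 0.29 with the trend removed), whose transcripts mostly lack a poly(A) tail. Nuclear and structural noncoding RNAs had 5 positive and 0 negative of 20 (25% and 0%, median -0.34), and 0 and 0 with the GC and length trend removed (median 0.15), 4 and 0 by library size alone, and 0 (without Control replicate 2 or Control replicate 4 or pNaKtide replicate 3) to 6 positive and 0 to 7 (without Control replicate 1) negative with 1 library left out, and Gm26917 was at 1.95 (adjusted p = 0.0569) with all libraries, 1.66 (adjusted p = 0.153) with the trend removed and 0.95 (adjusted p = 0.034) without oxLDL + pNaKtide replicate 1. Of genes selected by name, Nos3 was at 0.63 (adjusted p = 0.518), Ccl2 at -0.82 (adjusted p = 0.199) and Prkca at -0.28 (adjusted p = 0.26), and with the trend removed they were at 0.37, -0.59 and 0.12, none past the threshold.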
